A study of Caenorhabditis elegans with 6 samples.

Results

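The fbxa genes of the nematode Caenorhabditis elegans are one of the large groups of F-box protein genes of this animal. They were taken as all protein-coding genes of the deposited transcript table whose symbol is fbxa- followed by a number. This gave 177 genes of 20222 protein-coding genes in all, and 45 further fbxa entries annotated as pseudogenes were set aside. Small RNA had been sequenced from whole adult males of 2 genotypes, wild type and a prg-1 null mutant, with 3 libraries each. Males were raised at 25 °C without other treatment and collected 24 h past the mid-L4 larval stage, in batches of 20 to 30 animals per genotype. The allele of prg-1 is named in the labels only as null, and nothing in them says whether the 3 libraries of a genotype came from separate cultures, so p-values measure the spread between these libraries, which may be technical.

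F-box proteins are the part of an SCF ubiquitin ligase that picks the substrate: the F-box binds a Skp1-related adaptor, which binds a cullin, and the cullin carries a RING subunit and with it the ubiquitin-conjugating enzyme. In C. elegans the fbxa genes have multiplied into clusters of tandem copies, and for most members neither substrate nor mutant phenotype is known. PRG-1 is the Piwi-class Argonaute that binds piRNAs, called 21U-RNAs in this animal. Where a piRNA pairs with a transcript, RNA-dependent RNA polymerases copy the transcript into 22G-RNAs, antisense siRNAs of about 22 nt that start with G and are bound by worm-specific Argonautes. The study compared 22G-RNAs on protein-coding genes between the 2 genotypes.

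A read was counted here as a 22G-RNA when it was antisense, 21 to 23 nt long and began with G, on 1 isoform per gene. Levels are given in CPM, which are reads per 1000000 22G-RNAs of the tested genes after TMM scaling, so they are relative to the other 22G-RNAs of the library. Counted in this way, wild type libraries held 69111 to 303560 22G reads on protein-coding genes and the mutant ones 173698 to 373032, with the least in the third wild type library. On prg-1 itself there were 143, 441 and 88 reads in wild type, against 7, 15 and 9 in the mutant. Because the libraries hold small RNA, the sex was looked at only through sense fragments: major sperm protein genes gave 194 to 2314 sense reads per library, and the yolk protein genes vit-1 to vit-6, which hermaphrodites express, gave 2 to 10. Sense fragments of major sperm protein genes stood at 1316 ± 794 in wild type against 226.7 ± 29.8 in the mutant, per 1000000 reads aligned to the genome (SD, n = 3; reads of 2 dominant features left out of the reference), and their part in the results below was not tested.

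Summed over the family, 22G reads on fbxa genes numbered 1068, 2976 and 757 in wild type, against 292, 540 and 759 in the mutant. In wild type these were 0.949% (95% exact binomial interval 0.893 to 1.01), 0.98% (0.946 to 1.02) and 1.1% (1.02 to 1.18) of all 22G reads on protein-coding genes. In prg-1 null they were 0.168% (0.149 to 0.189), 0.187% (0.172 to 0.204) and 0.203% (0.189 to 0.218). The lowest wild type share lay above the highest prg-1 null share, and these intervals cover counting error only. The summed level was 11080 ± 1435 CPM in wild type against 2128 ± 366 CPM in the mutant (SD, n = 3), a ratio of 5.21. Scaled instead to 1000000 reads aligned to the genome it was 1376 ± 455 against 384.5 ± 39.2, a ratio of 3.58. In these whole animals, fewer cells carrying such siRNAs and fewer siRNAs per cell cannot be told apart.

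**Figure D1:**
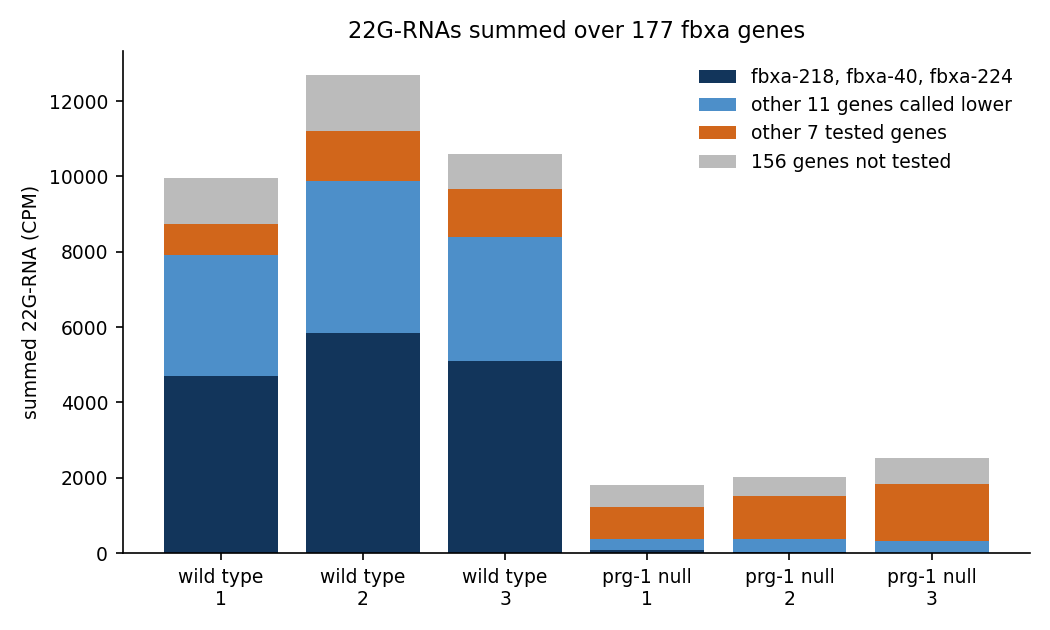
Summed 22G-RNA (CPM, linear axis from 0) over the 177 fbxa genes in each of the 6 libraries, split into the 3 most abundant genes in wild type, the other genes called lower in prg-1 null, the other tested genes and the genes with too few reads to test. The dark blue part of the 3 most abundant genes averaged 5219 CPM in wild type against 48.3 CPM without PRG-1, while the orange part of tested genes not called lower averaged 1142 and 1175 CPM.

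The sum was concentrated in few genes. fbxa-218, fbxa-40 and fbxa-224 alone made up 47.3%, 46.1% and 48.1% of the family's wild type reads by library, against 5.14%, 2.04% and 0.395% of its mutant reads. The other 11 genes called lower summed to 3509 ± 452 CPM in wild type but 302.5 ± 21.8 CPM in the mutant. The remaining 7 tested genes summed to 1142 ± 272 and 1175 ± 345 CPM, with overlapping libraries. At the other end, 62 of the 177 members had no 22G read in any library, and the depth does not show whether they carry none.

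Of the 177 members, 21 had enough reads to be tested in the fit over all genes, and 14 of these had less 22G-RNA in prg-1 null and 1 had more (edgeR quasi-likelihood test, BH 0.05 over all 2879 genes tested). Over all genes tested, 32.6% were called lower and 12.4% higher, and among the tested fbxa genes the shares were 66.7% and 4.76%. The median log2 fold change was -4.89 over the tested fbxa genes and -0.11 over all genes tested. A gene could pass the filter on low counts through wild type reads alone and then had to be lower in the mutant, so these shares describe the 21 tested genes and not the family. In all 14 genes called lower, the lowest wild type library lay above the highest prg-1 null library. The test favours genes separated in this way, and the same share over all genes tested is not given here. This separation is therefore no added support for the calls and no trait of the family. How the aligner placed reads that match several genes is not given in the sources used here, and members with near-identical copies may share or exchange reads to an extent not analysed here.

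**Figure D2:**
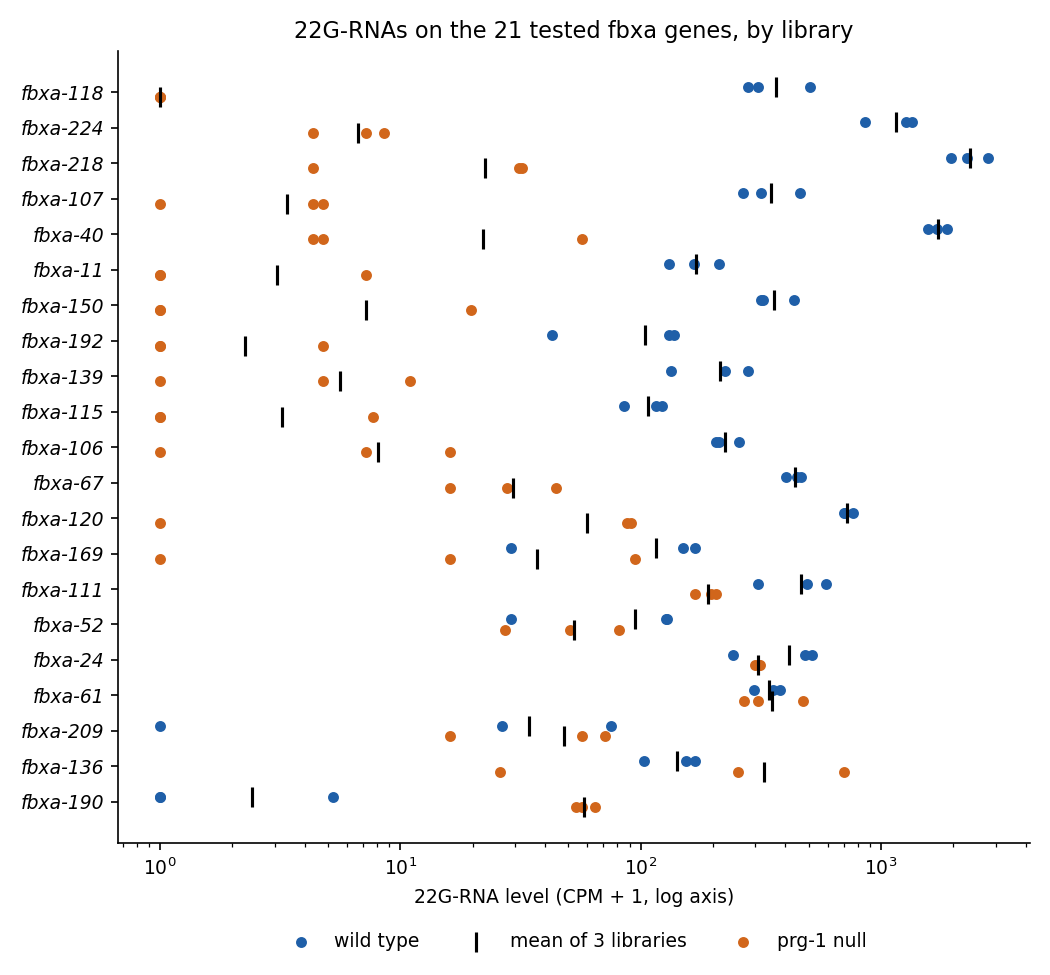
22G-RNA level (CPM + 1, log axis) of the 21 tested fbxa genes in each wild type and prg-1 null library, ordered by fitted fold change, with black ticks at the mean of 3 libraries. From fbxa-118 down to fbxa-120 the groups are far apart, with fbxa-218 at 1946 to 2795 CPM in wild type but 3.34 to 31.1 CPM in the mutant, while genes such as fbxa-61 and fbxa-24 overlap.

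The most abundant member was fbxa-218 (WBGene00013036; WBcel235 chromosome III, 12436552 to 12441056). Its 22G reads numbered 245, 655 and 139 in wild type, against 5, 8 and 1 in the mutant. The lowest wild type library stood at 1946 CPM and the highest mutant library at 31.1 CPM. Mean levels were 2341 ± 428 CPM with PRG-1 and 21.5 ± 15.8 CPM without it, 108.8-fold lower, for a log2 fold change of -6.83 ± 0.55 (SE; adjusted p = 6.0e-10 by edgeR). All of these reads were assigned to 1 of its 3 annotated isoforms.

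fbxa-40 (X, 1937947 to 1942199) had 168, 402 and 134 wild type reads and 9, 1 and 1 mutant reads. The first mutant library held most of what was left. From 1719 ± 155 CPM it dropped 81.7-fold to 21.04 ± 30.3 CPM (adjusted p = 1.5e-08 by edgeR). The log2 fold change was -6.63 ± 0.66. It was -8.74 without that first mutant library and -6.17 without the second. fbxa-224 (II, 7546807 to 7548129), a member with no other fbxa gene within 50 kb, had 92, 315 and 91 wild type reads, while the mutant libraries were all close to 0, with 1, 2 and 1. Its 1158 ± 263 CPM dropped 203.4-fold to 5.70 ± 2.15 CPM, a log2 fold change of -7.55 ± 0.61 (adjusted p = 6.7e-10 by edgeR). This ratio rests on those few mutant reads, and no counting interval was computed for it. Per kb of transcript the 3 genes stood at 1487, 1204 and 989 CPM in wild type, ranks 133, 155 and 188 among all protein-coding genes.

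fbxa-118 (V, 19776080 to 19777174) was the only tested member without a 22G read in the mutant. Wild type gave 30, 119 and 22 reads, or 365 ± 124 CPM, and each mutant library gave 0. Against a floor of 3 reads over the mutant libraries, 4.13 CPM, this is at least 88.4-fold lower. Its fitted log2 fold change of -9.14 depends on the small count that edgeR adds and is no bound (adjusted p = 9.1e-08).

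A further set of genes kept 1 to 3 reads over all mutant libraries, so that their ratios carry wide counting intervals. fbxa-107 (V, 18123939 to 18125245) had 34, 108 and 19 reads against 0, 1 and 1 in the mutant, a depth-scaled pooled ratio of 141.5 (95% counting interval 38.5 to 1178). fbxa-150 (V, 20522621 to 20524512) had 34, 102 and 23 reads against 3, 0 and 0, a pooled ratio of 93.2 (31.3 to 457). The 3 mutant reads of fbxa-150 came from 1 library, the first, and without it the log2 fold change was -9.18 in place of -6.16. That fit held no mutant read of the gene, so its value depends on the small count that edgeR adds. Without the second mutant library the log2 fold change was -5.58.

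fbxa-11 (III, 950869 to 952264) had 14, 39 and 15 reads against 1, 0 and 0, a pooled ratio of 119.5 (20.7 to 4789). It is the only tested member that overlaps a gene on the other strand other than a piRNA locus, the non-coding RNA gene T12B5.16. fbxa-192 (V, 17640672 to 17650527) had 14, 32 and 3 reads against 0, 1 and 0, a pooled ratio of 86.1 (14.8 to 3470). The third wild type library, at 41.99 CPM, was well below the other wild type libraries, at 130.5 and 136.6 CPM, for this gene. fbxa-115 (V, 20190535 to 20192152) had 13, 27 and 6 reads against 0, 0 and 2, a pooled ratio of 40.4 (10.6 to 344). These genes were called lower with log2 fold changes of -6.71 ± 0.75 for fbxa-107, -6.16 ± 0.82 for fbxa-150, -6.33 ± 0.996 for fbxa-11, -5.73 ± 1.09 for fbxa-192 and -5.03 ± 1.004 for fbxa-115 (edgeR adjusted p from 9.9e-08 to 1.9e-04). Leaving out the 1 mutant library that held the reads gave -8.09 for fbxa-11, -7.23 for fbxa-192 and -7.27 for fbxa-115. That library was the first, the second and the third, in this order. Those fits held no mutant read of the gene, so their values depend on the small count that edgeR adds. With any other library left out, the smallest falls were -5.86 for fbxa-11, -5.22 for fbxa-192 and -4.49 for fbxa-115. fbxa-192 had too few reads to test without the second wild type library, with summed isoforms or with pseudogenes kept.

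fbxa-139 (V, 15593462 to 15593799) has the shortest transcript of the tested members, at 288 bases. The wild type reads, 30, 31 and 16, compare with 0, 1 and 3 in the mutant. Its level of 212 ± 74.4 CPM dropped 46.2-fold to 4.59 ± 5.05 CPM (adjusted p = 1.5e-05 by edgeR). No counting interval was computed for this ratio, which also rests on few mutant reads. The log2 fold change of fbxa-139, -5.13, was -6.25 without the third mutant library and -4.81 without the first. Per kb its wild type level of 736 CPM was the fourth of the family, behind the 3 most abundant genes.

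The other 4 genes called lower showed smaller falls in the fit. fbxa-106 (V, 18082406 to 18085127) had 22, 60 and 15 reads against 1, 4 and 0. It went from 223.7 ± 28.1 CPM to 7.09 ± 7.57 CPM, 31.5-fold lower, a ratio without a computed counting interval. Its log2 fold change of -4.89 was -6.27 without the second mutant library and -4.33 without the third. fbxa-67 (III, 949300 to 950670) had 43, 109 and 32 reads against 7, 4 and 8, and dropped 15.4-fold, from 438 ± 33.3 CPM to 28.4 ± 14.3 CPM (adjusted p = 2.5e-06 by edgeR). fbxa-120 (X, 17302719 to 17303994) had 76, 179 and 50 reads against 0, 23 and 27. Mean levels of 724 ± 34.8 CPM with PRG-1 and 58.9 ± 51 CPM without it made this 12.3-fold lower, and the first mutant library stood apart at 0 while the others held 86.6 and 90.1 CPM. fbxa-111 (V, 16948659 to 16949674) showed the smallest fall, 462 ± 143 CPM against 189 ± 20.1 CPM, with a log2 fold change of -1.30 ± 0.45 (adjusted p = 0.022 by edgeR). It was not called when the replicate number entered as a block (adjusted p = 0.10), when the second wild type library was left out (0.119), when low counts were not filtered (0.15), when every antisense read was counted (0.234) or when scaled to genome-aligned reads (0.264).

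**Figure D3:**
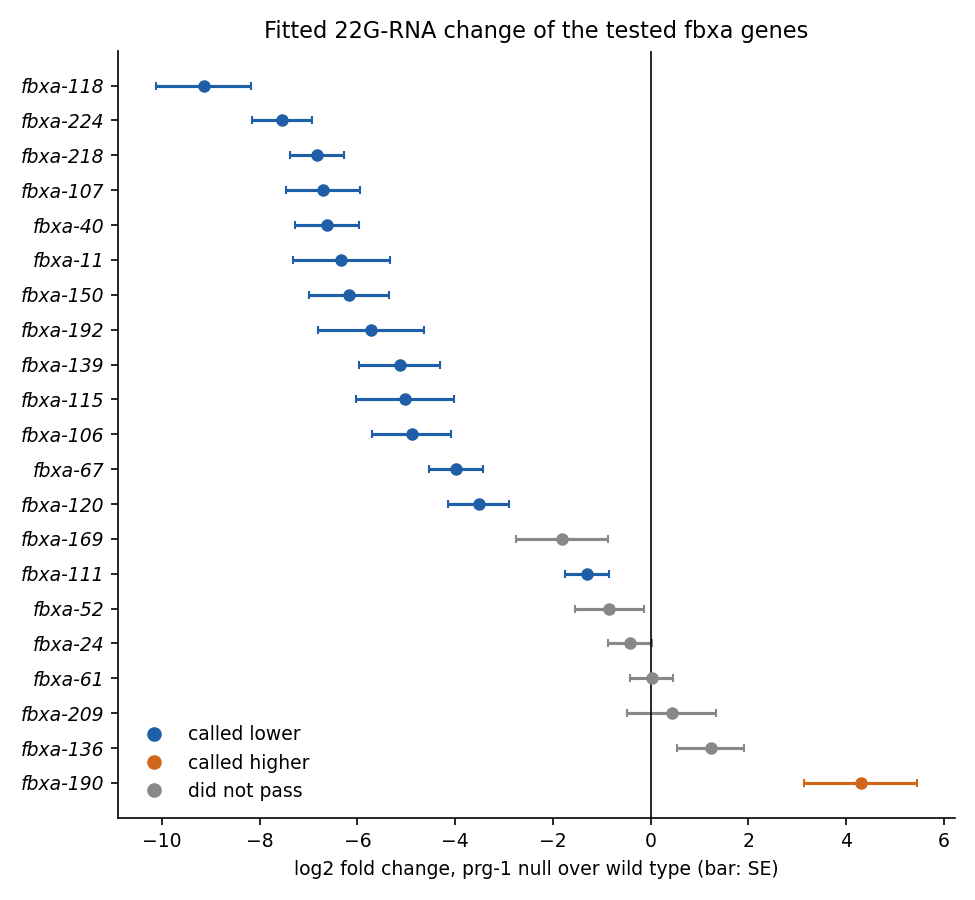
Fitted log2 fold change of 22G-RNA (prg-1 null over wild type, bars show 1 SE) for the 21 tested fbxa genes. The 13 lowest points lie between -9.14 and -3.52, fbxa-111 lies at -1.30, and fbxa-190 is the only point called higher, at 4.30.

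The single gene called higher was fbxa-190 (X, 1372012 to 1374630). Its wild type reads were 0, 1 and 0 and its mutant reads 9, 14 and 19, or 1.42 ± 2.46 against 57.4 ± 5.46 CPM. The mutant libraries lay close together, between 52.7 and 63.4 CPM. The fitted log2 fold change was 4.30 ± 1.15 (adjusted p = 0.0032 by edgeR), and the pooled ratio was 23.9 (95% counting interval 4.06 to 966). With a replicate block the adjusted p was 0.0585, and the gene fell below the filter when the second wild type library or either of the last 2 mutant libraries was left out, and when 22-nt reads alone were counted.

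For 6 tested members the difference did not pass, and none of them had an unadjusted p under 0.05. fbxa-61 (III, 1239260 to 1242780) had 38, 89 and 21 reads against 43, 126 and 92 in the mutant, at 342.6 ± 44.1 and 349.6 ± 110 CPM, and its log2 fold change was 0.02 ± 0.44. fbxa-24 (II, 3816686 to 3818238) stood at 414 ± 150 and 307 ± 7.51 CPM (log2 fold change -0.43 ± 0.45). In both genes the libraries of the 2 genotypes overlapped. fbxa-136 (V, 17521037 to 17527479), with the longest transcript of the tested members at 5662 bases, had 11, 36 and 12 reads against 4, 67 and 210. Its mutant libraries ran from 24.9 to 701 CPM, below and above all wild type libraries, and its log2 fold change of 1.23 ± 0.69 was 1.77 with the first of them left out (adjusted p = 0.0047) and -0.08 with the last left out (0.948).

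fbxa-169 (II, 13648530 to 13655347) had 3, 35 and 12 reads against 15, 4 and 0, so the groups overlapped. Its log2 fold change was -1.82 ± 0.94 (adjusted p = 0.128), and leaving out the first mutant library moved it to -3.94 (0.0018). Leaving out the first wild type library also gave a call (0.0496). fbxa-52 (X, 1710293 to 1711212) stood at 93.98 ± 57.2 and 52.1 ± 26.9 CPM, with a log2 fold change of -0.85, or -1.46 with the third mutant library left out. fbxa-209 (V, 15423746 to 15425498) stood at 33.4 ± 37.9 and 47 ± 28.6 CPM, with a log2 fold change of 0.43, or 1.48 with the first wild type library left out. Neither of these genes was called in those fits.

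The 156 members that were not tested held few reads. Among them 94 had at least 1 read, with a median of 6 reads over all 6 libraries, against 163 for the tested members. Reads were seen only in wild type for 24 of them, only in prg-1 null for another 24, and in both genotypes for 46. They summed to 1213 ± 285 CPM in wild type against 602 ± 80.4 CPM in the mutant, and each wild type library (924 CPM or more) lay above each mutant library (684 CPM or less). Scaled to 1000000 reads aligned to the genome, these sums were 126.3, 222.5 and 105.3 against 113, 99.86 and 113.9, and the libraries of the genotypes overlapped.

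The untested member with the most reads was fbxa-166 (II, 1616912 to 1619004), with 12, 49 and 2 reads against 0, 0 and 1. fbxa-158 and fbxa-75, which act with a cullin complex in the response to intracellular pathogens and heat, both had no read in any library. fbxa-182, another gene known from that response, had 0 wild type reads and 3 mutant reads.

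Most members lie near another member. With members joined where they lie within 50 kb of each other, 135 of the 177 fell into 25 groups and 42 stood alone. Chromosome V holds 71 members and chromosome III holds 65, followed by X with 16, II with 14, I with 6 and IV with 5. Of the 10 tested members on V, 8 were called lower, against 3 of 4 on III, 2 of 4 on X and 1 of 3 on II. Over all genes tested, 31% to 40.5% were called lower per chromosome.

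**Figure D4:**
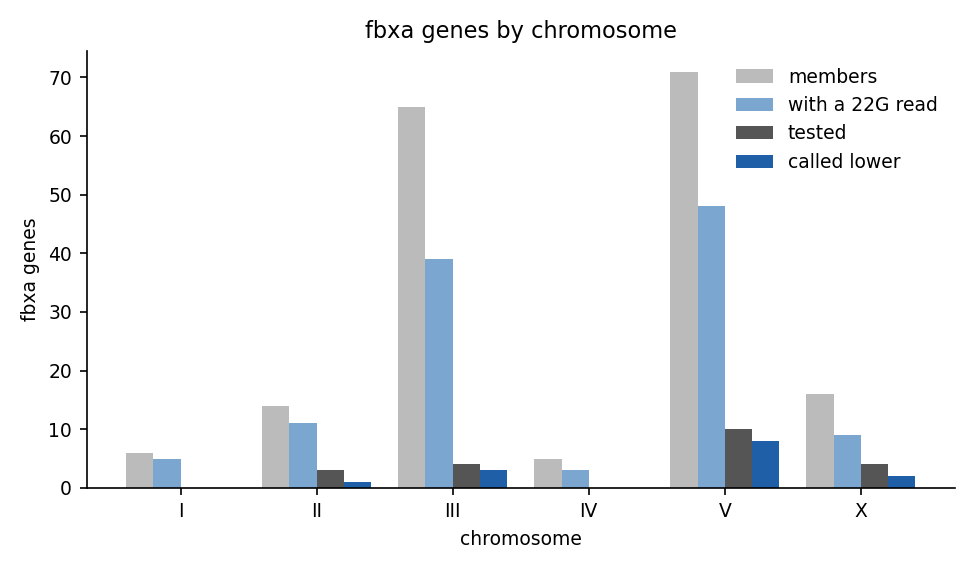
Number of fbxa genes per chromosome (linear axis from 0): all members, members with at least 1 22G read, members tested and members called lower in prg-1 null. Chromosomes III and V hold 65 and 71 members, but 4 and 10 tested ones, and 8 of the 14 genes called lower lie on V.

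The largest group, on chromosome III from 1236015 to 1383412, holds 31 members, of which 16 had reads and only fbxa-61 was tested. Summed over the group, 22G-RNA averaged 463 CPM over the 3 wild type libraries and 476 CPM over the mutant ones. Most of both sums was fbxa-61, at 342.6 and 349.6 CPM. Of its untested members, fbxa-76 went from 52.7 to 3.48 CPM and fbxa-35 from 9.19 to 55.98 CPM. A second group on III, from 2219797 to 2314073, holds 15 members and had 27.4 and 20.9 CPM. Neither group held a gene called lower, but no member of the second group was tested, so it could hold none. The third group on III, from 933585 to 963679, holds 11 members, among them fbxa-67 and fbxa-11, which were called lower, and it went from 720 to 136 CPM.

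Other members of the group around fbxa-67 and fbxa-11 held few reads. fbxa-10, the next member after fbxa-11, had 9, 4 and 5 wild type reads and 0, 2 and 10 mutant reads, or 56.98 ± 35.3 against 13.6 ± 17.5 CPM with overlapping libraries. fbxa-23, the next member before fbxa-67, had no wild type read and 2, 0 and 0 mutant reads. fbxa-60 had 3 reads in each wild type library and 10, 4 and 9 in the mutant ones, and fbxa-59 had 0, 3 and 4 against 4, 1 and 15. On chromosome V, fbxa-210 starts just after fbxa-107 and had 4, 20 and 0 reads against 5, 5 and 27. These genes had too few reads to test. fbxa-194, next to fbxa-118 and also untested, had 0, 20 and 1 reads in wild type and none in the mutant.

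Annotated fbxa pseudogenes lie among the coding members and carry 22G-RNAs too. In a fit that kept pseudogenes, 11 of the 45 were tested, and 6 were called lower and 3 higher, while 33.2% of all features in that fit were called lower and 12.9% higher (edgeR, BH 0.05). fbxa-203 (I, 3371769 to 3373834) had 92, 220 and 56 wild type reads and none in any mutant library, at least 208-fold lower. fbxa-178 (V, 6116521 to 6117849) went from 1113 ± 42.7 CPM to 9.18 ± 2.63 CPM, 121-fold lower (adjusted p = 7.7e-10 by edgeR). In wild type fbxa-203 stood at 860 CPM. Both pseudogenes thus lay below the coding member fbxa-224 (1158 CPM) and above fbxa-120 (724 CPM).

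The pseudogene fbxa-93 (I, 13829662 to 13831607) went the other way, with 0, 1 and 1 reads against 75, 126 and 166 in the mutant (adjusted p = 1.6e-07 by edgeR). In 2 places a pseudogene called higher lies beside a coding member with fewer reads in the mutant, though only 1 of these members was called lower. fbxa-149 (V, 20516298 to 20518036) rose 3.28-fold, from 442 ± 129 CPM to 1449 ± 239 CPM (adjusted p = 4.7e-04 by edgeR), and lies beside fbxa-150, which fell. fbxa-168 (II, 13645781 to 13648850) rose 6.64-fold, from 135 ± 82.1 CPM to 899 ± 105 CPM (adjusted p = 6.9e-05 by edgeR). Its last bases overlap the start of fbxa-169, and reads in the bases they share may not be told apart. The difference of fbxa-169 did not pass (adjusted p = 0.128 by edgeR), and its libraries overlapped. On V, by contrast, the pseudogene fbxa-193 lies near fbxa-192 and fell with it, from 31, 96 and 13 reads to 0 in each mutant library. The pseudogene fbxa-191, which lies closer to fbxa-192 on its other side, did not pass. It had 5, 33 and 15 reads against 17, 36 and 68 (log2 fold change 0.27, adjusted p = 0.75 by edgeR).

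Most antisense reads on fbxa genes met the definition of 22G-RNAs in both genotypes. Reads of 22 nt were 51.8% ± 3.23 of all antisense reads in wild type and 52.1% ± 3.14 in the mutant (SD, n = 3). Those that met the 22G-RNA definition were 59.9%, 68.5% and 60.6% by wild type library, against 54.1%, 51.9% and 56.2% by mutant library, so the mutant shares were lower without overlap. Over all protein-coding genes this share was 36.8%, 52.3% and 31.8% in wild type and 48%, 51.7% and 55.2% in the mutant, higher in the mutant on average but with overlap. Reads starting with A made up 19.3% ± 1.25 in wild type against 23.7% ± 1.64 in the mutant, again without overlap, and 14.1% ± 0.608 and 13% ± 0.625 over all protein-coding genes.

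**Figure D5:**
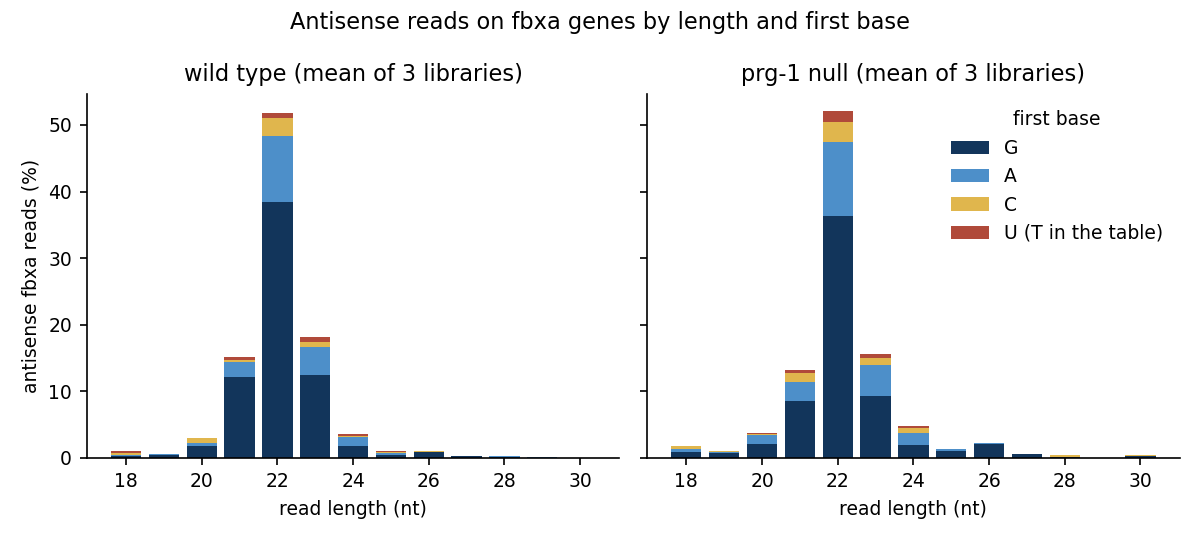
Antisense reads on fbxa genes by length (18 to 30 nt) and first base, as a percentage of all antisense reads on these genes, mean of 3 libraries per genotype. The peak at 22 nt holds 51.8% in wild type and 52.1% in the mutant, and most of it starts with G.

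26G-RNAs, the primary siRNAs of the ERI pathway that are 26 nt long and start with G, were rare on these genes. The family held 29, 35 and 0 antisense reads of that kind in wild type, against 12, 35 and 10 in the mutant, of 7042 to 41833 such reads per library on all protein-coding genes. The only member with enough of them to test was fbxa-202 (V, 6327223 to 6328865), with 22, 25 and 0 reads against 4, 25 and 8, and it did not pass (log2 fold change -0.14 ± 0.72, adjusted p = 0.969 by edgeR). In that fit, 2.18% of 643 genes were called.

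Sense reads on the family were fewer, at 363.6 ± 52.1 per 1000000 genome-aligned reads in wild type against 157.6 ± 14.6 in the mutant, and they came mostly from a handful of genes. fbxa-12 (III, 2219797 to 2222365) gave 494 sense reads over the 6 libraries, 98.2% of them 26 nt long and starting with G. By library, the sense reads of that length and first base were 117, 149 and 27 in wild type against 51, 60 and 81 in the mutant, so both genotypes held them. The annotation places no gene on the other strand there.

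fbxa-216 (I, 11901608 to 11903305) gave 25, 109 and 26 sense reads in wild type but 0, 0 and 4 in the mutant, of which 73.8% were 22 nt long and started with G. Its antisense 22G reads were only 5, 0 and 1 in wild type and 0 in the mutant. fbxa-69 gave 293 sense reads, mostly of 21 to 23 nt starting with G, in both genotypes. fbxa-188 gave 130, of which 125 were 16 nt long and started with A, and 101 of these came from the third wild type library.

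The partners of F-box proteins in the SCF ligase were looked up in the same fit. Of 20 Skp1-related skr genes in the table, 10 had reads and 2 were tested. skr-18 was 10.07-fold lower, at 174 ± 119 CPM against 17.3 ± 18.4 CPM (adjusted p = 0.0015 by edgeR), and skr-2 did not pass. Of 6 cullin genes 4 were tested. cul-4, which serves other ubiquitin ligases than SCF, was 7.46-fold lower, at 81.8 ± 38.8 CPM against 10.96 ± 6.70 CPM (adjusted p = 0.0055 by edgeR), while the SCF cullin cul-1 did not pass, at 91.2 ± 31.2 and 164 ± 123 CPM. The RING subunit gene rbx-1 did not pass either. cul-6, skr-4 and skr-5, which act with fbxa-75 and fbxa-158, had no 22G read, and skr-3 had 2.

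None of 10 listed F-box genes outside the numbered families had enough reads to test. Among them fog-2, an F-box gene needed for spermatogenesis in hermaphrodites, had 1, 6 and 0 wild type reads and 0, 0 and 2 mutant reads. In the fbxb family 25 of 106 genes had reads and 7 were tested, of which 2 were called lower and 1 higher, with a median log2 fold change of 0.30. These shares, 28.6% and 14.3%, lie near the 32.6% and 12.4% over all genes tested. In the fbxc family 17 of 49 had reads and 5 were tested, of which 4 were called lower. Of those 4 genes, 2 had no mutant read, and with these at their bounds the median log2 fold change of the 5 was -4.67 (-7.33 as fitted). Reads were thus seen on 115 of 177 fbxa genes, 25 of 106 fbxb genes and 17 of 49 fbxc genes, and the differences between the families were not tested.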

How the data were processed

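Per the file headers, the authors deposited whole, unnormalized numbers of trimmed reads starting in each of 35862 annotated transcripts of WBcel235, sense and antisense, with the same reads listed in another deposited text column by length and first base. These deposited values are treated here under the unit of expected counts, because the treatment of reads matching several features is not given in the sources used here, nor is the aligner, and rounding changed none of them. RNA had been treated with a pyrophosphatase before ligation, per the labels' protocols, so that triphosphorylated siRNAs could be cloned. FastQC 0.12.0 and cutadapt 3.7 are named in the submitters' processing notes. Reads lie on spliced transcripts, hence in exons or UTRs. Positions are those of the deposited table, and overlaps with other genes come from the Ensembl annotation, release 115.

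Each gene was represented by the isoform with the highest mean of antisense 21 to 23 nt reads starting with G. Genotypes were compared over all protein-coding genes with edgeR 4.0.16 (R 4.3.3): filterByExpr, TMM, quasi-likelihood test, genotype as the only term, Benjamini-Hochberg (BH) 0.05. SE is the log2 fold change over the root of F. Bounds use 3 reads over the group without reads, and pooled ratios carry exact binomial intervals (95%). Both cover counting error only, as no molecular identifiers are described. Tables and figures used Python 3.11.15, pandas 2.3.3, scipy 1.17.1 and matplotlib 3.10.9. The fit was also run on counts simulated with a common dispersion for all genes, and no result here rests on that run.

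The family, the lists and the tests were chosen with earlier results of these data known. Named were up to 10 called members per direction by largest log2 fold change (at least 10 CPM in the higher group, no overlap), up to 6 abundant members that did not pass, the untested member with the most reads, fbxa-75, fbxa-158, fbxa-182 and SCF genes. The other tested members, neighbours, pseudogenes and genes rich in sense reads were named after their values were seen. No sequence of the members was used, so likeness between them was not analysed here.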

Additional observations from a re-analysis of the deposited data

Results flagged for a closer look

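22G-RNAs on 3 annotated fbxa pseudogenes, which the comparison of protein-coding genes leaves out, lay above the wild type level in every prg-1 null library. The mean in prg-1 null was 1449 CPM for fbxa-149, 899 CPM for fbxa-168 and 498 CPM for fbxa-93, against 442, 135 and 6.09 CPM in wild type (n = 3 each). For fbxa-93 the depth-scaled pooled ratio was 104 (95% counting interval 28.7 to 865).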

How the results depend on the processing

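The count of fbxa genes called lower, 14, stayed within 1.5 times that number in every alternative run (DESeq2 1.42.0, library-size scaling, scaling to genome-aligned reads, both filters, a replicate block, 22-nt reads alone, all antisense reads, summed isoforms, pseudogenes kept), between 12 and 18, and between 12 and 20 without each library in turn. The share called lower was less stable, since the number of members tested changed with the setting. It was 14 of 21 in the main fit, beside 938 of all 2879 genes tested. Without a filter on low counts it was 18 of 115, beside 1200 of 12123 genes. With 22-nt reads alone it was 12 of 16, beside 672 of 1675 genes. The count called higher, 1, was 2 when scaled to genome-aligned reads and 0 with at least 10 counts in 3 libraries, with 22-nt reads alone and with a replicate block, and 0 to 2 without each library. With genome-aligned scaling, which left out sense rbd-1 and antisense daf-15 reads and moved the median gene from -0.11 to 0.44 on the log2 scale, 578 of all genes were called higher in place of 357, fbxa-136 joined the genes called higher (1.70, adjusted p = 0.023) and fbxa-111 was not called. The summed log2 ratio, -2.38, was -1.84 with that scaling, -1.93 with all antisense reads, and -2.53 to -2.27 without each library, the last chosen after seeing the data. Of genes that had not passed, fbxa-24 changed sign with genome-aligned scaling (0.10) and all antisense reads (0.0038), fbxa-61 with DESeq2 (-0.068), library-size scaling (-0.029), at least 10 counts (-0.15) and without the third wild type (-0.06) or the second prg-1 null library (-0.28), and fbxa-136 without the third prg-1 null library. Without each library in turn, the log2 fold change was -0.28 to 0.14 for fbxa-61 and -0.078 to 1.77 for fbxa-136. The cause of these changes was not tested. Same-numbered libraries did not deviate together (r = -0.041, 0.048 and 0.012), so the replicate numbers are taken as names only. With a replicate block 13 fbxa genes were called lower and 0 higher, and 890 and 306 of all genes. fbxa-52, fbxa-115, fbxa-190, fbxa-192 and fbxa-209 gave no value with 22-nt reads alone or with at least 10 counts in 3 libraries, since they then had too few reads to test.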
